A study of Mus musculus with 44 samples.

Results

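Plasma cells of the spleen were compared between a sort that carried a tamoxifen-induced YFP mark (YFP+) and a sort that did not (YFP-), taken from the same mice at day 5 after tamoxifen. The comparison was defined by the labels: 7 of the series' 44 libraries are spleen libraries of day 5, with 4 YFP+ and 3 YFP- libraries. Mice 09-01, 07-26 and 09-29 gave both sorts and were paired. Mouse 09-15 gave only a YFP+ spleen library that could be used. It forms no pair, enters the scaling and filtering, and is shown beside the paired test. All mice had the genotype BEC-YFP and were 24 weeks old at tamoxifen. The sorted cells were CD138high B220-, the YFP+ sort is labelled LLPC (used for long-lived plasma cells) and the YFP- sort is labelled Bulk PC. The same mice gave marrow libraries at day 5 (3 YFP+ and 3 YFP-), and separate mice, also 24 weeks old at tamoxifen, gave spleen libraries at day 90 (4 and 4). The model fit also holds marrow libraries of day 90 and marrow and spleen libraries of day 90 from BEC-YFP mice 6 to 8 weeks old at tamoxifen. Mice of day 5 are named by the date in their titles, whose meaning is not stated.

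As background, BEC-YFP is a model in which a tamoxifen-activated Cre recombinase is expressed under control of Prdm1 (Blimp1), the transcription factor that drives plasma cell differentiation. Tamoxifen then switches on YFP for good in cells that express Prdm1 at that time, so that cells formed later lack the mark. Cells that escaped recombination also lack it, and the labels give no share of marked cells. The plasma cells carrying YFP at day 5 were marked only days before, whereas those at day 90 have persisted for months. Plasma cells are antibody-secreting cells with a large endoplasmic reticulum (ER), and Xbp1 is the transcription factor that expands their secretory machinery. The spleen holds recently formed plasma cells, many of them short-lived, and newly formed plasmablasts still divide.

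The 7 libraries held 8567321 to 11722492 counts and the other 36 assigned libraries 6643295 to 12663103. Each of the 7 had counts for all 22 plasma cell identity genes, and Jchain, the joining chain of secreted IgA and IgM, took 22 to 33% of counts. Levels are given in CPM, counts scaled to a common library size after TMM normalization. Differences are YFP+ minus YFP- on the log2 scale ± SE from an edgeR quasi-likelihood fit with mouse as a block, and a gene was called at a Benjamini-Hochberg adjusted p under 0.05.

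The sorts differed by unlike amounts in the 3 mice. Among 7916 genes with a mean of at least 5 CPM, 2067 (26.1%) differed at least 2-fold between the sorts in mouse 09-01 and 3008 (38%) in mouse 07-26. In mouse 09-29 only 262 (3.31%) did so, a share near those of the marrow pairs of the 3 mice (2.77 to 4.16%). Across these genes, which are not independent replicates, the differences of mice 09-01 and 07-26 correlated with r = 0.68, and those of mouse 09-29 with theirs at 0.12 and 0.07. This is a description of 3 pairs with no test.

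The YFP- libraries of mice 09-01 and 07-26 stood apart from their partners in composition. Genes encoded by the mitochondrial genome took 1.42% and 1.56% of their counts, against 0.664% and 0.587% in the paired YFP+ libraries. In mouse 09-29 the shares were 0.754% (YFP-) and 0.795% (YFP+), and in the YFP+ library of mouse 09-15 the share was 1.12%; the 15 spleen libraries of day 90 (8 from mice of 24 weeks and 7 from mice of 6 to 8 weeks) held 0.639 to 1.97%. Cytosolic ribosomal protein genes took 2.64% and 3.02% in those YFP- libraries, 1.28 to 1.43% in the 3 paired YFP+ libraries, 1.4% in YFP- cells of mouse 09-29, 2.35% in YFP+ cells of mouse 09-15 and 1.22 to 2.67% in the 15 others. The nuclear RNA Malat1 took 0.526% and 1.04% against 0.139% and 0.24%. For Malat1 the YFP+ partners were the ones below the range of the 15 other spleen libraries (0.303 to 1.24%), as were both libraries of mouse 09-29 (0.174% in YFP+ and 0.216% in YFP-). So which sort of a pair was unusual depended on the measure. Sdc1, which encodes the sorting antigen CD138, was at 325 and 149 CPM in the YFP- libraries of mice 09-01 and 07-26 and at 909 and 690 in the paired YFP+ libraries. In mouse 09-29 it was at 587 (YFP-) and 615 (YFP+), and in mouse 09-15 at 321. The YFP- library of mouse 07-26 correlated least of all 43 libraries with the spleen libraries of other mice (median r across genes 0.852; the 36 libraries outside the comparison lay between 0.89 and 0.945).

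Monocyte and macrophage markers were higher in the same 2 YFP- libraries than in their partners. Erythroid, T cell and NK cell markers summed highest in the YFP- library of mouse 07-26. The 16 monocyte and macrophage markers summed to 196 and 1831 CPM in the YFP- libraries of mice 09-01 and 07-26 and to 41.3 and 29.8 in their YFP+ libraries. In mouse 09-29 the sum was 167 in YFP- and 308 in YFP+ cells, the reverse order, and it was 207 in mouse 09-15. At 0 were 6 and 8 of the 16 markers in the YFP+ libraries of mice 09-01 and 07-26, and 2 and 0 in the YFP- libraries. The defining markers Csf1r and Cd5l had 0 counts in the YFP+ libraries of mice 09-01 and 07-26, and Csf1r reached 10.2 and 82.4 CPM in the paired YFP- libraries. Of the 12 erythroid markers in the table, the sum was 2605 CPM in the YFP- library of mouse 07-26, 470 in mouse 09-15 and 5.97 to 22.2 in the other 5 libraries. T cell markers summed to 59.3 CPM in the YFP- library of mouse 07-26 and to 13 to 25.2 CPM in the others. Cd8a was at 0 in all 7 libraries, while Cd3g was at 17.3 CPM in that YFP- library and at 0 in its partner. Members of the list went both ways in this pair. Cd4 (5.3 CPM in YFP+ against 2.5 in YFP-), Lat (9.47 against 4.24), Tcf7 (3.61 against 2.87) and Cd8b1 (0.902 against 0) were higher in YFP+ cells. In mouse 09-01 the T cell sum was 25.2 CPM in YFP+ and 13 CPM in YFP- cells. NK cell markers summed to 116 CPM in the YFP- library of mouse 07-26 and to 13.2 to 56.2 CPM in the others. Gzma made up 71.7 CPM of the 116, and it was at 29.6 CPM in the paired YFP+ library. Prf1 went the other way in each pair. It was at 31.5, 24.7 and 15 CPM in YFP+ and 14.4, 4.62 and 2.57 CPM in YFP- cells of mice 09-01, 07-26 and 09-29. The median differences of mouse 07-26 were -2.38 over the 14 tested T cell markers and -2.69 over only 4 tested NK cell markers. Neutrophil markers summed to 0.518 to 18.7 CPM, megakaryocyte markers to 0.103 to 1.25, and stromal and endothelial markers to 13.7 to 26.7. Pecam1 (12.5 to 26.4 CPM) made up nearly all of the stromal and endothelial sum. Dendritic cell markers (2063 to 4676 CPM) and the eosinophil, basophil and mast cell list (411 to 2268) hold genes that plasma cells express, such as Bst2 and Prg2. Most of the dendritic cell sum was Ly6d (1472 to 4321 CPM), and nearly all of the other was Prg2 (410 to 2261 CPM). The part of these cells, of depth of RNA and of the 2 libraries in the results that follow was not tested, and in bulk libraries fewer cells of a type and less RNA per cell cannot be told apart.

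**Figure D1:**
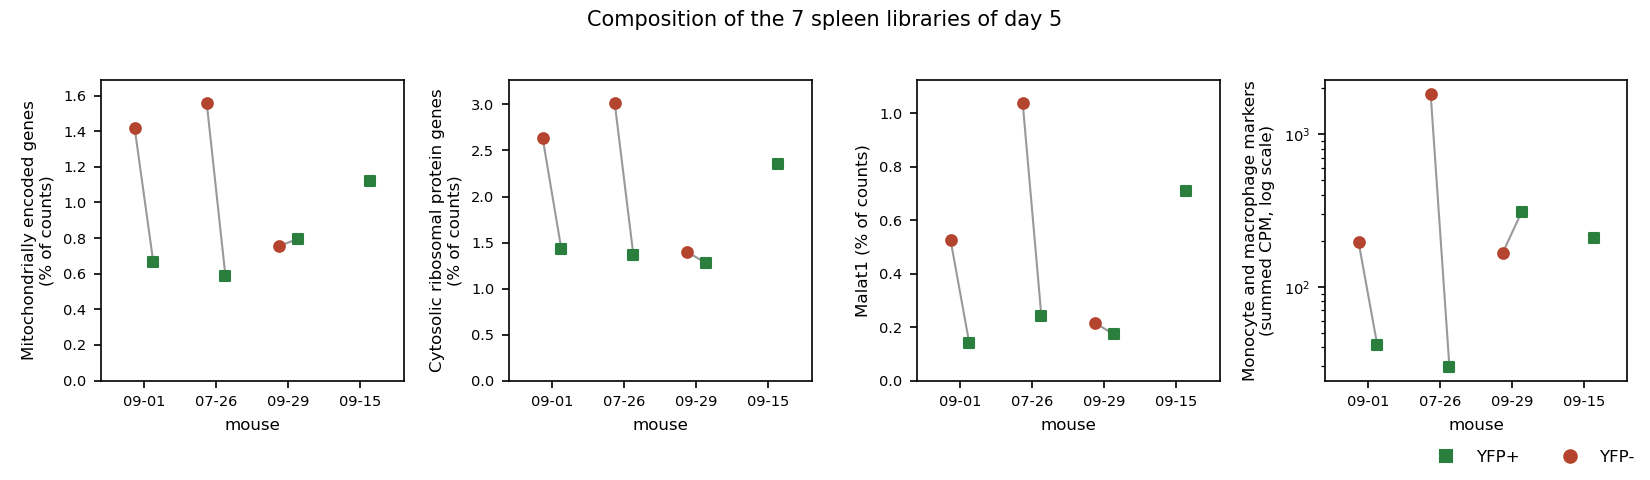
Share of counts in mitochondrially encoded genes, cytosolic ribosomal protein genes and Malat1, and the summed CPM of 16 monocyte and macrophage markers (log axis), in each of the 7 spleen libraries of day 5. Squares are YFP+ and circles YFP- libraries, and lines join the sorts of a mouse. The YFP- libraries of mice 09-01 and 07-26 lie far above their partners in all 4 panels, and those of mouse 09-29 do not.

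With the mouse block, 456 of 12457 genes were called (3.66%). Of these, 174 (1.4% of genes tested) were higher and 282 (2.26%) lower in YFP+ cells. The smallest adjusted p was 0.0329, and 3459 genes had an unadjusted p under 0.05. The calls rested on mice 09-01 and 07-26. No gene was called when the YFP+ library of mouse 09-01, the YFP+ library of mouse 07-26 or the YFP- library of mouse 07-26 was left out (2417, 2237 and 1252 genes at an unadjusted p under 0.05 in edgeR). Without the YFP- library of mouse 09-01 only the lower genes Cd68 and Btg1 were called. Leaving out the YFP- library of mouse 09-29 raised the number to 3500, and leaving out its YFP+ library gave 280, of which 206 were among the 456. Without the mouse block no gene was called (1865 at an unadjusted p under 0.05, smallest adjusted p 0.163). These limits apply to every gene described as higher or lower below. As a set the calls rest on the pairs 09-01 and 07-26 with a smaller contribution of mouse 09-29, though not for every gene. Pi4k2a, for example, differed by 0.76, 1.52 and 1.52 in mice 09-01, 07-26 and 09-29.

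The called genes moved in the same direction in mouse 09-29, by less. The median difference of the 174 higher genes was 1.35 in mouse 09-01, 1.81 in mouse 07-26 and 0.31 in mouse 09-29, and 167 of them were higher in all 3 pairs, as were 19.6% of all genes. The 282 lower genes had medians of -1.26, -1.59 and -0.20, and 235 were lower in all 3 pairs, as were 20.2% of all genes. In the YFP+ library of mouse 09-15, set against the mean of the 3 YFP- libraries, the medians were 0.30 and -0.08 (all genes 0.02). On the side of the call were 136 of the higher (78.2%) and 164 of the lower genes (58.2%). The share of all genes on either side is not given. At least 1.5-fold in all 3 pairs were 42 of the 174 and 48 of the 282 genes. Over all genes tested 2.41% were at least 1.5-fold higher in all 3 pairs and 2.58% lower. The 4 YFP+ libraries all lay above the 3 YFP- libraries for 22 of the higher genes and all below for 14 of the lower genes, against 1.87% and 1.82% of all genes. The 3 paired YFP+ libraries alone lay above all YFP- libraries for 125 and below for 153 of the called genes, against 9.06% and 8.45% of all genes. Genes were called on these same libraries, so these counts describe the called genes and add no support.

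**Figure D2:**
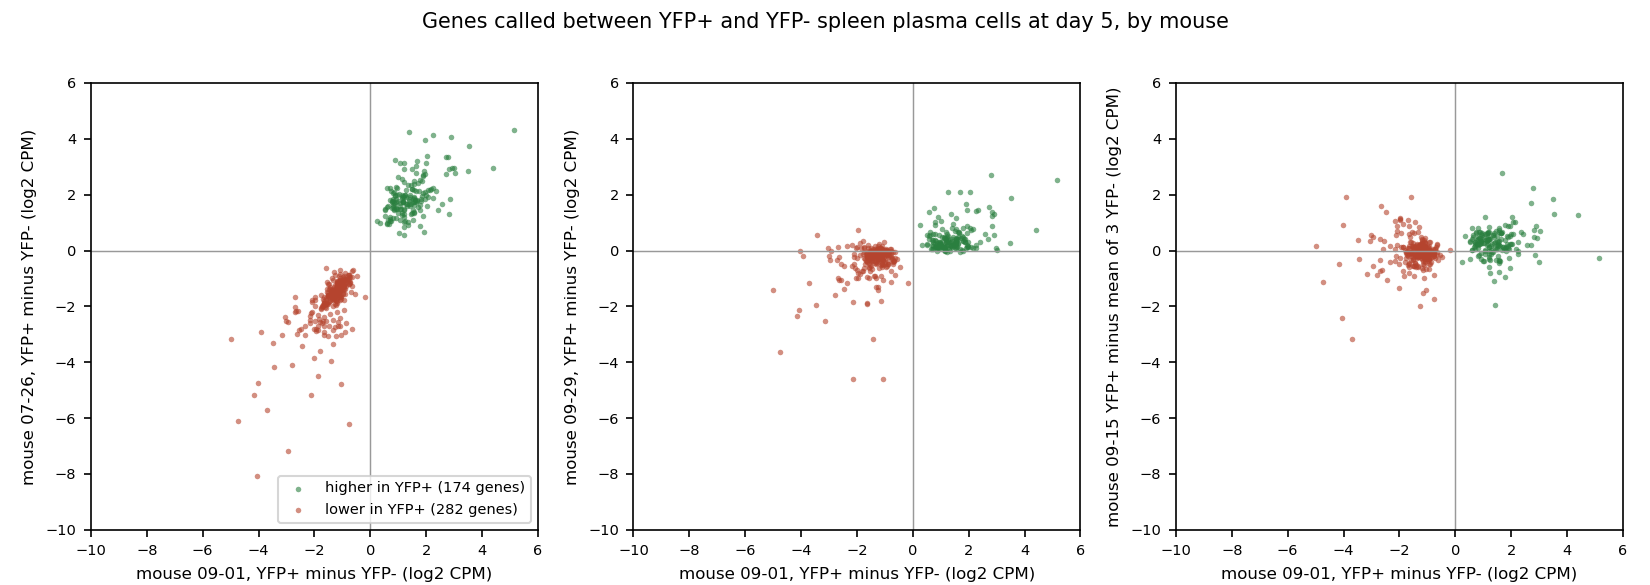
YFP+ minus YFP- difference (log2 CPM) of the 456 called genes in mouse 09-01 (horizontal axis) against mouse 07-26, mouse 09-29 and the unpaired YFP+ library of mouse 09-15 minus the mean of the 3 YFP- libraries (vertical axes). Green points are genes called higher and red points genes called lower in YFP+ cells. Points spread along the diagonal mainly in the panel of mouse 07-26. In the others many lie near 0 on the vertical axis, with exceptions such as Ube2c (-3.63 in mouse 09-29) and Axl (-2.40 in mouse 09-15).

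Several genes, chosen after their values were seen, separated all 4 YFP+ from all 3 YFP- libraries or differed by like amounts across mice. Skil, which encodes SnoN, a repressor of TGF-beta signalling, was at 77.9, 79.9, 63.7 and 56.9 CPM in the YFP+ libraries of mice 09-01, 07-26, 09-29 and 09-15, and at 37.5, 37.7 and 37.2 CPM in the YFP- libraries of mice 09-01, 07-26 and 09-29. The YFP- values were nearly equal and all YFP+ values higher (0.96 ± 0.21, adjusted p = 0.0352 in edgeR). The remaining genes are given in the same order of mice. Slc41a2, a magnesium transporter, was at 21.4, 18.8, 16.5 and 7.41 CPM in YFP+ and 4.06, 4.12 and 5.97 CPM in YFP- cells (1.94 ± 0.35, adjusted p = 0.0329). Xrcc1, a scaffold of single-strand DNA break repair, was at 24.3, 24.2, 16.3 and 7.08 against 6.13, 1.37 and 5.8 CPM (2.27 ± 0.42). Its difference was uneven across mice (1.95, 3.95 and 1.46 by pair), and the YFP- library of mouse 07-26 held only 11 counts of it. For both Slc41a2 and Xrcc1, the unpaired library of mouse 09-15 was the lowest of the YFP+ values and lay just above the highest YFP- value. Btla, an inhibitory receptor of B and T cells, differed by a similar amount in all pairs (-0.77, -0.87 and -0.74), from 138, 113 and 73.9 CPM in YFP- to 80.7, 61.8 and 44 in YFP+ cells, with 56.6 in mouse 09-15 (-0.80 ± 0.22). Its groups overlapped between mice, since the YFP+ library of mouse 09-01 exceeded the YFP- library of mouse 09-29.

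Ube2c and Bcl2l11, genes of cell division and cell death, also separated the groups. Ube2c, which encodes a ubiquitin-conjugating enzyme of the anaphase-promoting complex, was at 0.308, 0.338, 0.623 and 7.85 CPM in YFP+ and 13.6, 37.3 and 10.1 CPM in YFP- libraries (adjusted p = 0.044). The 3 paired YFP+ libraries held only 3, 3 and 6 counts of it, and mouse 09-15 lay close to the YFP- libraries. Bcl2l11, which encodes the pro-apoptotic protein Bim, was at 3.6, 1.58, 6.54 and 8.74 CPM against 9.42, 17.8 and 12.4 CPM (-1.86 ± 0.53, adjusted p = 0.0478). Btg1, an antiproliferative gene, had the smallest p of all genes, at 3.39, 3.61, 6.13 and 22.5 CPM in YFP+ and 8.29, 31.8 and 15.4 CPM in YFP- libraries (-1.96 ± 0.35, adjusted p = 0.0329), lower in each pair and high in mouse 09-15. Axl, a receptor tyrosine kinase of macrophages that binds apoptotic cells, was at 0.103, 0, 0.312 and 1.44 against 5.01, 55.4 and 2.07 CPM (adjusted p = 0.044), highest in the library with the most macrophage mRNA.

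**Figure D3:**
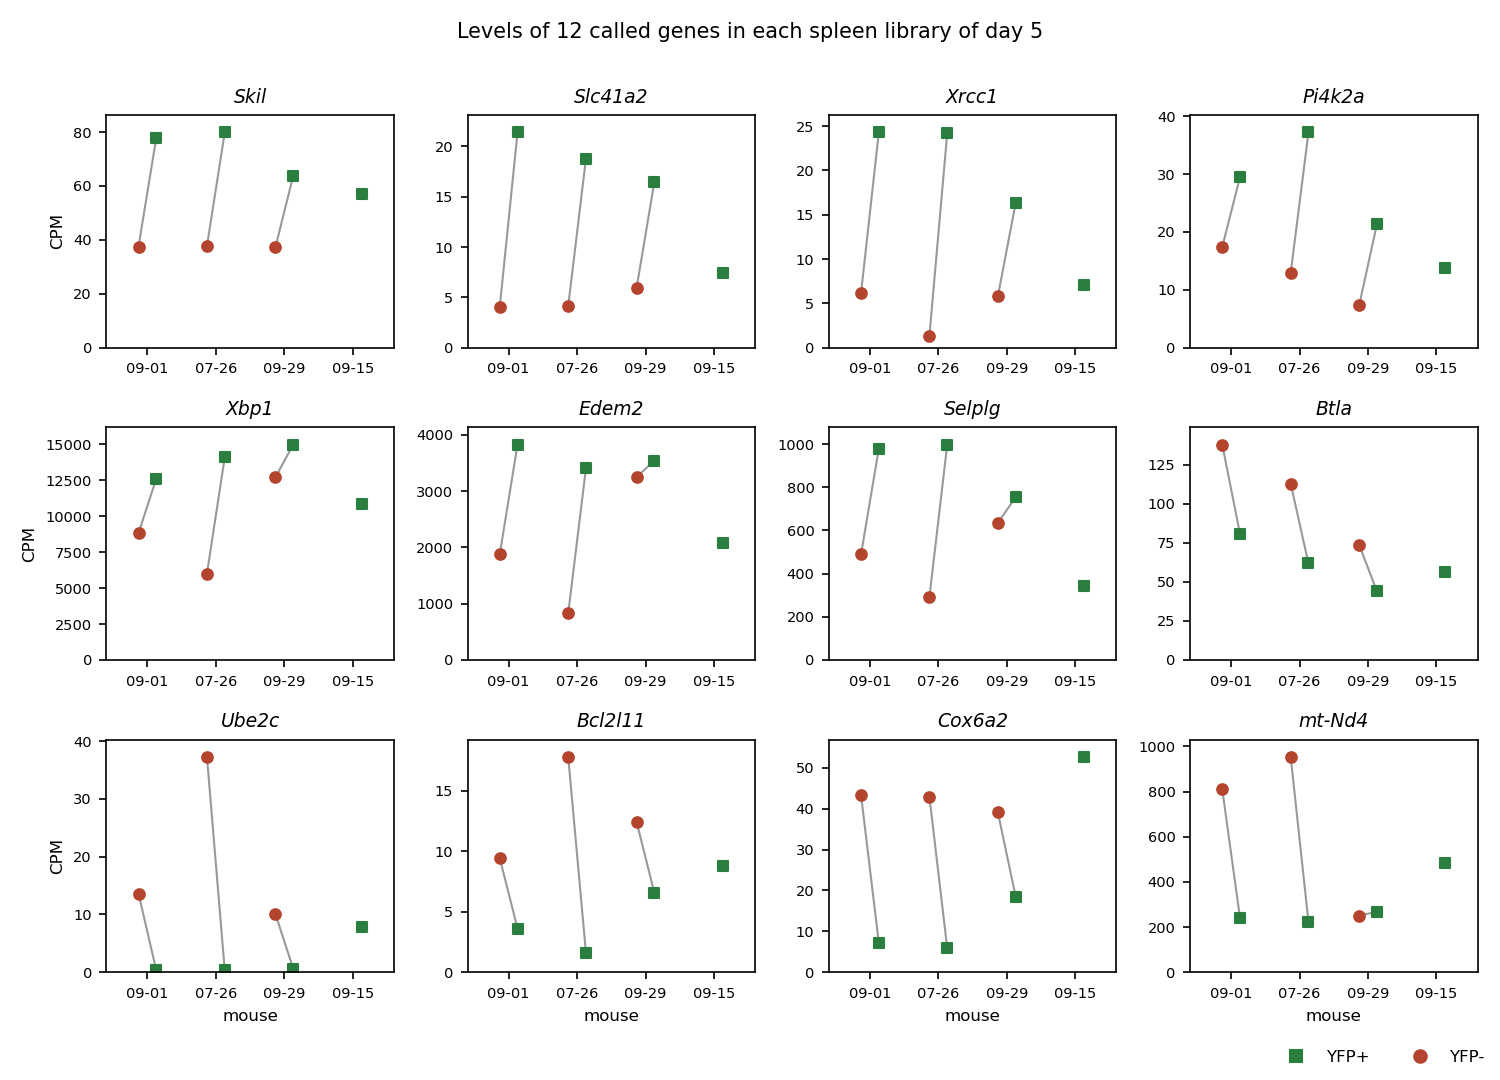
Levels (CPM) of 12 called genes in the 7 spleen libraries of day 5; squares are YFP+ and circles YFP- libraries, and lines join the sorts of a mouse. The groups are apart for Skil, Slc41a2, Xrcc1, Ube2c and Bcl2l11, whereas mt-Nd4 differs in mice 09-01 and 07-26 and is level in mouse 09-29.

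Xbp1, Edem1 and Edem2 were called higher in YFP+ cells. Xbp1 was at 12624, 14087, 14986 and 10871 CPM in YFP+ and 8817, 6009 and 12697 CPM in YFP- libraries, higher in each pair (0.63 ± 0.17, adjusted p = 0.044). Between mice the groups overlapped, since the YFP- library of mouse 09-29 exceeded the YFP+ libraries of mice 09-01 and 09-15. Of the 21 tested genes of ER-associated degradation and unfolded protein response sensors, 2 were called higher (9.52%, against 1.4% of all genes) and none lower. These were Edem1 and Edem2, lectins that hand misfolded glycoproteins over for degradation. The list median was 0.26 and that of all genes 0.00. By pair it was 0.54 and 0.52 for the list in mice 09-01 and 07-26 and -0.11 in mouse 09-29. The summed level of the list in mouse 09-29 was 17832 CPM in YFP+ and 18190 CPM in YFP- cells. Edem2 was at 3830, 3412, 3546 and 2084 against 1879, 827 and 3253 CPM (0.99 ± 0.25). The difference was large in mice 09-01 and 07-26 and slight in mouse 09-29 (1.03, 2.04 and 0.12). Edem1 followed the same order (0.84, 1.45 and 0.13; 0.76 ± 0.20).

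Other secretory genes went in different directions within a list. Over all genes tested, 1.4% were higher and 2.26% lower. Of 30 genes of the translocon, signal recognition and glycosylation, 1 was higher (3.33%), Srpr, the receptor of the signal recognition particle (1.04 ± 0.30). Lower were 5 (16.7%), namely Dad1, Ostc, Spcs1, Srp14 and Srp19, small subunits of oligosaccharyltransferase, signal peptidase and the signal recognition particle (-0.81 to -0.92). Among 22 ER chaperones only the proline isomerases Ppib (-0.66 ± 0.18) and Fkbp2 were called, both lower (9.09%). Hspa5 (BiP), the main ER chaperone, was at 7171, 6173, 7338 and 5528 CPM in YFP+ and 3815, 1888 and 9108 in YFP- cells, of opposite order in mouse 09-29 (adjusted p = 0.116). None of 30 ER to Golgi transport genes was called in edgeR (median 0.18). In plasma cell identity, 1 of 22 genes was higher (4.55%), namely Xbp1, and 2 were lower (9.09%). The lower ones were Eaf2, an elongation factor partner (-0.78 ± 0.23), and Fkbp11, an ER proline isomerase (-0.94 ± 0.26). Prdm1 was at 169, 134, 99 and 120 against 146, 146 and 74.9 CPM and was not called (0.17 ± 0.15, adjusted p = 0.489). Irf4 (-0.38 ± 0.17, adjusted p = 0.142) and Sdc1 (1.12 ± 0.35, adjusted p = 0.0548) were not called either.

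Ribosomal and mitochondrial transcripts made up the clearest groups of lower genes. Of 60 cytosolic ribosomal protein and translation genes, 31 (51.7%) were lower and none higher, with a median of -0.99; 2.26% of all genes were lower. Rps18, of the small subunit, was at 160, 169, 193 and 438 CPM in YFP+ and 439, 589 and 230 CPM in YFP- libraries (-1.27 ± 0.28, adjusted p = 0.0352). The median of the list was -1.20 in mouse 09-01, -1.39 in mouse 07-26 and -0.06 in mouse 09-29, and it was 0.11 for the YFP+ library of mouse 09-15 against the mean YFP- library. The lower ribosomal genes were thus those of 2 mice. Sharing of reads with ribosomal pseudogenes was not tested.

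Of 13 genes encoded by the mitochondrial genome, 7 were lower (53.8%, against 2.26% of all genes) and none higher (median -1.04; -1.30, -1.89 and 0.17 by pair). mt-Nd4, a subunit of respiratory complex I, was at 239, 222, 267 and 482 CPM in YFP+ and 810, 954 and 251 CPM in YFP- libraries (-1.38 ± 0.30, adjusted p = 0.0352). Among 54 nuclear genes of the respiratory chain, 9 were lower (16.7%) and 1 higher (1.85%, Ndufs1; 1.4% of all genes), with a median of -0.89 (-1.14, -1.24 and -0.07 by pair). Cox6a2, a cytochrome oxidase subunit usually found in muscle, was at 7.19, 5.86, 18.5 and 52.7 CPM in YFP+ and 43.4, 42.9 and 39.1 CPM in YFP- libraries (-2.24 ± 0.45, adjusted p = 0.0352). The 3 pairs differed the same way for Cox6a2, including mouse 09-29 (-1.07), while mouse 09-15 held the highest value of all. The differences also varied with transcript length (GENCODE M21), though not in 1 direction, among tested genes of at least 5 CPM. The 1473 genes with the shortest transcripts (297 to 1755 bases) had median differences of -0.64, -0.65 and -0.04 in mice 09-01, 07-26 and 09-29. Genes of 2689 to 3651 bases had medians of 0.45, 0.54 and 0.00, and the 1544 longest (from 4972 bases) 0.03, -0.13 and -0.00. The part of length was not tested.

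Of 30 mitosis genes 1 was called lower (3.33%) and 1 higher (3.33%), against 2.26% and 1.4% of all genes. Their summed level was below that of YFP- cells in each pair. The 30 mitosis genes summed to 162, 137, 136 and 171 CPM in YFP+ and 223, 365 and 233 CPM in YFP- libraries, so that the groups did not overlap. The median difference was -1.29 (-0.58, -1.78 and -1.26 by pair, and -0.30 for mouse 09-15), and 25 of 30 genes had a negative difference; over all genes 6220 of 12457 did. The median of mouse 09-29 lay between those of the other pairs. Ube2c was called lower and E2f1, a transcription factor of S phase entry that the list holds, was called higher (1.64 ± 0.46). Cks1b, a cyclin-dependent kinase subunit taken by the naming rule, was at 17.3, 24.6, 45.3 and 74.9 CPM in YFP+ and 56.8, 98.3 and 63 in YFP- libraries (-1.42 ± 0.31). Mki67 (-0.70 ± 0.39) and Top2a (-1.47 ± 1.01) were not called (adjusted p = 0.243 and 0.349). Of 24 DNA replication genes none was called in edgeR (median 0.19). The mitosis median in the marrow pairs of the same mice was -2.12, with no gene called, and in spleen at day 90 it was -2.96, with 11 of 30 lower (1.36% of all genes were lower there).

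The naming rule took 15 higher and 15 lower genes by p. The higher genes had differences between 0.95 and 1.53. They were Pi4k2a, a phosphatidylinositol kinase of the Golgi and endosomes (29.5, 37.2, 21.3 and 13.7 against 17.4, 12.9 and 7.3 CPM; 1.28 ± 0.26), the guanylate-binding protein Gbp9, the Elongator subunit Elp2, the microtubule end-binding protein Mapre2, Skil, the Golgi membrane protein Tm9sf4, Selplg, the gamma-tubulin Tubg1, Pcyt2 of phosphatidylethanolamine synthesis, R3hcc1, Ash2l of histone methyltransferase complexes, Cabin1, Stat4, the lipid droplet hydrolase Ldah and Git2. Gbp9 and Tubg1 belong to families of similar genes, and sharing of reads was not tested. Selplg (PSGL-1), a selectin ligand, was the only called gene of 32 in the homing list (3.12%, against 1.4% of all genes higher). It was at 978, 998, 754 and 344 CPM in YFP+ and 489, 292 and 635 CPM in YFP- libraries (0.95 ± 0.21). Stat4, a transcription factor of cytokine signalling, was at 60.3, 56, 54.9 and 20.8 against 12.4, 15.1 and 48.4 CPM (1.33 ± 0.32). In both genes mouse 09-15 was lowest among the YFP+ libraries and below the YFP- library of mouse 09-29.

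The lower genes of the rule had differences between -1.05 and -2.24. Beside Cox6a2, Cks1b, Rps18 and mt-Nd4 they were the calcium-binding protein Nucb2, the macrophage lysosomal protein Cd68, the Mediator subunit Med21, the carboxypeptidase Cpq, the mRNA export factor Thoc7, the lysosomal protease Ctss, the mitochondrial calcium uniporter subunit Smdt1, the biliverdin reductase Blvrb, Rapgef1, Bmyc and the RNA helicase Ddx17. Nucb2 was at 16.5, 17.8, 57 and 173 CPM in YFP+ and 65.2, 60.8 and 115 in YFP- libraries (-1.61 ± 0.32), lower in each pair but highest of all in mouse 09-15. Ctss, which trims the invariant chain for antigen presentation, was at 602, 893, 2754 and 4580 against 1641, 2204 and 3276 CPM (-1.05 ± 0.23). In both sorts its level was higher in mouse 09-29 than in mice 09-01 and 07-26, and mouse 09-15 held the highest value. Cd68 was at 30.6, 23.3, 52.3 and 109 against 48.3, 164 and 95.8 CPM (-1.58 ± 0.31). It was the only called gene of 15 tested monocyte and macrophage markers (6.67%, against 2.26% of all genes lower). All 15 had a negative fitted difference, with a median of -3.75 (by pair -3.96, -7.85 and 0.82, so of opposite sign in mouse 09-29).

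B cell and antigen presentation genes showed 1 call among 29, a lower gene (3.45%, against 2.26% of all genes). H2-DMa, a chaperone that loads peptides on MHC class II, was at 40.7, 44.5, 68.9 and 76 CPM in YFP+ and 64.8, 108 and 89 CPM in YFP- libraries (-0.79 ± 0.18, adjusted p = 0.044), lower in every pair. The class II chain H2-Aa (-1.14 ± 0.35) and the B cell antigen Ms4a1 (-0.94 ± 0.33) were lower in each pair as well without being called (adjusted p = 0.0541 and 0.0765).

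Survival and stress genes gave few calls, where over all genes 1.4% were higher and 2.26% lower. Among 23 apoptosis regulators only Bcl2l11 was called, as lower (4.35%). Mcl1, the survival factor on which plasma cells depend, was at 269, 222, 176 and 235 CPM in YFP+ and 271, 261 and 152 CPM in YFP- libraries (-0.02 ± 0.16, adjusted p = 0.956). Tnfrsf17 (BCMA), the receptor for the survival cytokine APRIL, was at 445, 532, 348 and 380 against 669, 890 and 322 CPM (-0.45 ± 0.19, adjusted p = 0.124), and none of the 20 survival receptor genes was called in edgeR. The stress transcription factor Ddit3 (CHOP) was lower (56.4, 48.3, 52.6 and 90.2 against 112, 118 and 64.3 CPM, -0.88 ± 0.23). It was the only call among 26 stress response genes (3.85%). In the interferon list, 1 of 34 genes was called in each direction (2.94%), the lower one being the interferon-induced Ifi27l2a (-1.73 ± 0.49).

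The remaining lists held from 0 to 2 calls. Over all genes tested 1.4% were higher and 2.26% lower. Glycolysis had 18 of 22 genes with a positive difference and a median of 0.43 (0.38, 0.83 and -0.01 by pair, and -0.20 for mouse 09-15), with none called in edgeR. The redox and iron list had 2 of 30 lower (6.67%), ferritin heavy chain Fth1 (-0.58 ± 0.16) and the glutathione peroxidase Gpx4 (-0.72 ± 0.20). The proteasome list had 2 of 38 lower (5.26%), and the immediate early list 2 of 23 lower (8.7%), Fosb (-1.74 ± 0.50) and Klf4. Surface molecules had 1 lower gene of 28 (3.57%), Cd52 (-1.38 ± 0.37). NF-kB responses had 1 higher gene of 25 (4%), Bcl3 (1.28 ± 0.36). Autophagy had 1 of 28 higher (3.57%), Wipi2 (0.88 ± 0.23), and cholesterol synthesis 1 of 23 (4.35%), Sc5d (0.93 ± 0.25).

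**Figure D4:**
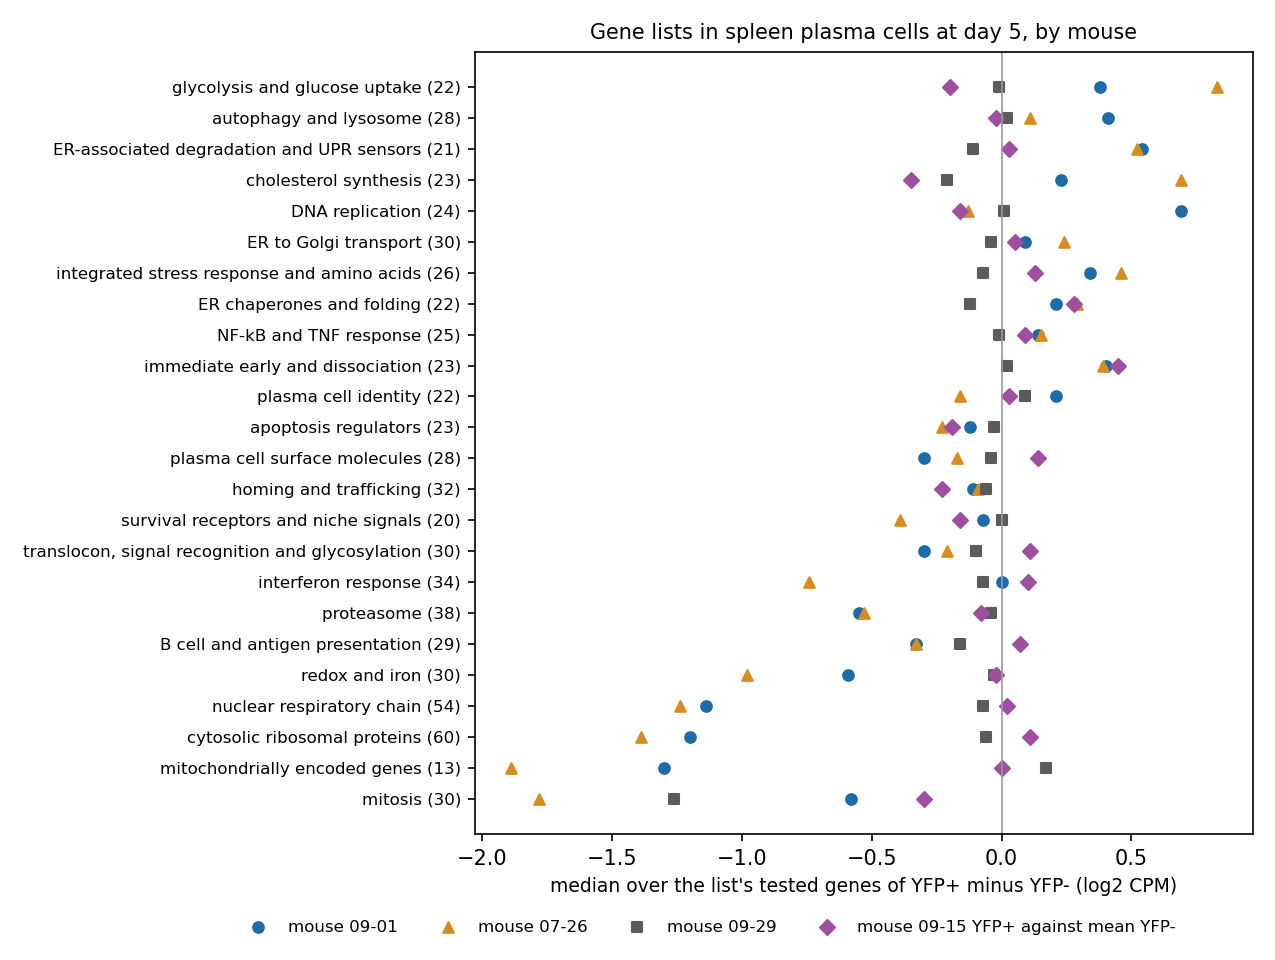
Median YFP+ minus YFP- difference (log2 CPM) over the tested genes of each of 24 gene lists (number of genes in parentheses), in mice 09-01 (circles), 07-26 (triangles) and 09-29 (squares), and for the YFP+ library of mouse 09-15 against the mean of the 3 YFP- libraries (diamonds). For ribosomal and mitochondrial lists the circles and triangles lie near or beyond -1 and the squares and diamonds near 0, whereas for mitosis the square lies at -1.26.

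The spleen difference was then set against that of the marrow of the same mice. In marrow at day 5, 2 of 12457 genes were called (0.0161%), the basophil proteases Prss34 and Mcpt8, both lower. The difference between the organs was called for 1 gene (0.00803%), Prss34 (12.32 ± 1.73, adjusted p = 0.00624 in edgeR), with 1198 genes at an unadjusted p under 0.05. The call rested on the marrow: Prss34 was at 2236 CPM in the YFP- marrow library of mouse 07-26, at 0 to 0.723 CPM in the other 5 marrow libraries and at 0 to 0.564 CPM in the 7 spleen libraries. None of the 456 spleen genes was therefore shown to differ between organs. Their median marrow difference was 0.13 for the higher and -0.14 for the lower genes (all genes -0.01), with 131 of 174 and 237 of 282 of the same sign. The share of all genes with the same sign is not given. Single genes varied. The marrow difference was -1.58 ± 0.32 for Nucb2, -1.70 ± 0.33 for Cpq and -1.94 ± 0.48 for Cox6a2, near their spleen values though not called. For Med21 and mt-Nd4 it was 0.01 ± 0.25 and -0.08 ± 0.29.

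Against day 90 the difference itself was called for 91 genes (0.731%), 42 higher (0.337%) and 49 lower (0.393%). For most genes that the rule named here the difference lay in the day 90 sorts. Slamf6, a SLAM-family receptor of lymphocytes, was at 117, 161, 104 and 76.6 CPM in YFP+ and 98.3, 106 and 122 CPM in YFP- spleen cells at day 5. At day 90 it was at 12.2 to 29.3 CPM in YFP+ and 94 to 152 CPM in YFP- cells. The contrast was 0.21 ± 0.26 at day 5 and -2.66 ± 0.25 at day 90, a difference of 2.87 ± 0.36 (adjusted p = 9.01e-05). Levels of the inhibitory receptor Tigit, the serine protease Prss57, the secreted protein Fam3c and the zinc finger protein Zfp280b followed the same pattern. Their day 5 contrasts lay between -0.22 and 0.64 and were not called, and at day 90 all 4 were lower in YFP+ cells (-1.27 to -4.19).

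The opposite sign was seen for Creb3l1, a transcription factor of the secretory pathway, the transporter Spns3, Cpq, Prg2, the eosinophil major basic protein that plasma cells express, and the iron carrier transferrin (Trf). Creb3l1 was at 14.1, 11.3, 15.7 and 19.7 CPM in YFP+ and 22.9, 22 and 18.7 CPM in YFP- cells at day 5 (-0.64 ± 0.22, adjusted p = 0.0682), and at 22.2 to 34.9 against 10.7 to 14.1 CPM at day 90 (1.25 ± 0.19). The difference was -1.89 ± 0.29 (adjusted p = 0.000758). Of these 5 genes only Cpq was called at day 5. It was at 5.96, 14.5, 109 and 109 CPM in YFP+ and 26.2, 49.9 and 153 in YFP- libraries (-1.58 ± 0.33), against 42.9 to 220 and 24.3 to 121 CPM at day 90 (0.97 ± 0.27, adjusted p = 0.0543). Without the YFP- spleen libraries of mice 09-01 and 07-26, the difference was called for 7 genes in all. Among the 10 named here, the 5 higher ones kept their call and the 5 lower ones lost it. Slamf6, Fam3c, Creb3l1 and Trf were called both without the mouse block and in limma voom with mouse as a random effect. Prss57 was called only in the first of these (adjusted p = 0.022 in edgeR and 0.0659 in limma). Tigit, Zfp280b, Spns3, Cpq and Prg2 were called in neither.

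**Figure D5:**
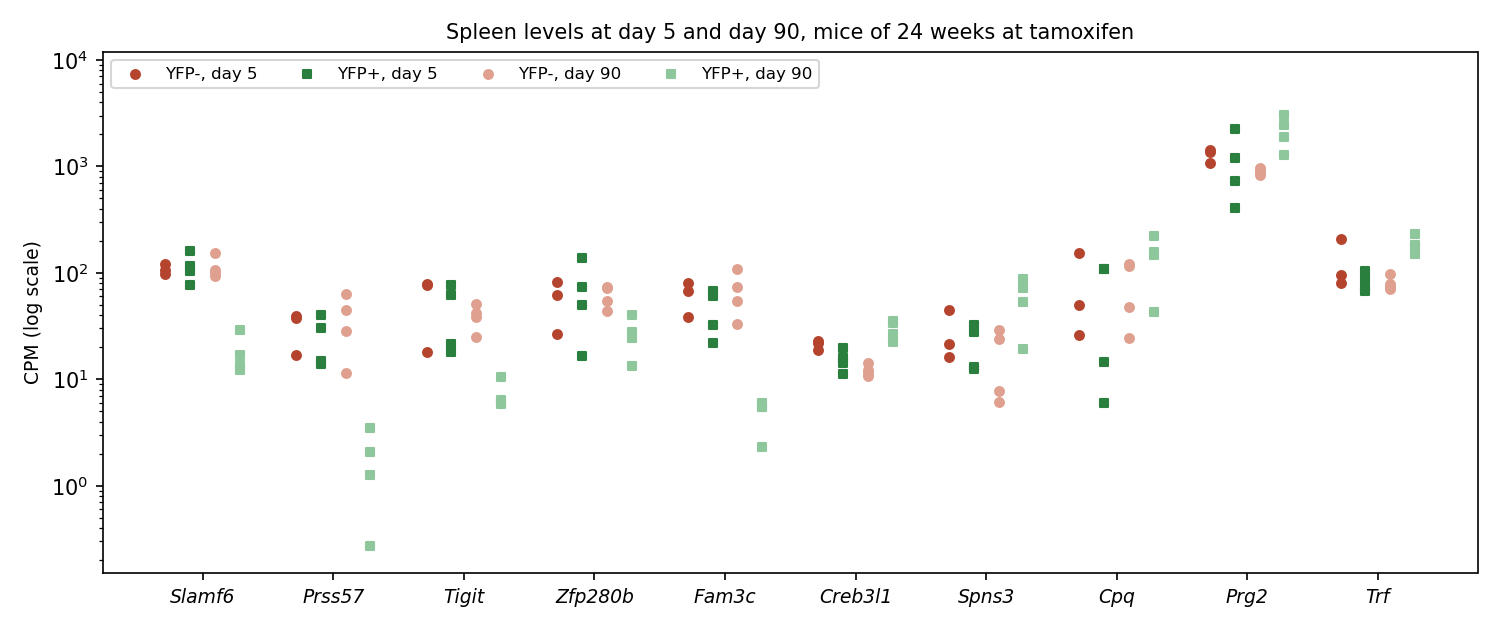
Spleen levels (CPM, log axis) at day 5 (dark) and day 90 (pale) of the 10 genes named for the difference between days; squares are YFP+ and circles YFP- libraries, all of mice 24 weeks old at tamoxifen. For the 5 genes on the left the pale squares lie below all other libraries, apart from Zfp280b, and the dark squares overlap the circles.

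Of the called genes, none of 174 higher and 9 of 282 lower were also called in the same direction at day 90. The 9 are 3.19% of the genes lower at day 5 and 5.33% of the 169 lower at day 90. Over all genes 1.36% were lower and 0.827% higher at day 90, where 272 genes in all were called (2.18%). The 9 shared genes are Ube2c, H2-DMa, the dystrophin-complex protein Sspn, the lymphotoxin chain Ltb, the signalling adaptor Hcst, the actin regulator Gmfg, the granule proteoglycan Srgn, S100a10 and Ppib. No gene was called in opposite directions on the 2 days. The libraries of the 2 days come from separate mice.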

How the data were processed

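The deposited values are expected counts per gene, whole for most genes, in a table that the authors deposited without immunoglobulin genes, per its name and the labels of its columns. The labels name SMART-Seq v4 for cDNA and Nextera XT for libraries. STAR 2.6.1b, RSEM 1.3.1 and DESeq2 1.26.0 appear in the submitters' processing notes. These notes list both GRCm38 and GRCm39, and which was used is not given in the sources used here. Of the values 3.1% were not whole and were rounded. Of 54960 rows, 1362 have an identifier but no gene symbol (at most 0.00668% of a library's counts).

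Counts were tested in edgeR 4.0.16 (R 4.3.3) with TMM scaling, filterByExpr (minimum count 10) and a robust quasi-likelihood fit of 43 libraries of 13 mice, with mouse as a block (21 residual degrees of freedom, biological coefficient of variation 0.342). P-values were adjusted by Benjamini-Hochberg over 12457 genes. Log2 values of a library or pair used a prior count of 2. The marrow library of mouse 09-15, whose title and cell type label disagree, was left out. The mouse in the title pairs the libraries. After group means were removed, libraries of a mouse correlated at a median r of 0.18 (57 pairs) and those of different mice of a cohort at -0.06 (175 pairs). The spleen pairs 09-01, 07-26 and 09-29 gave 0.19, -0.06 and 0.24.

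On simulated data for this contrast (12457 genes, 200 changed), 35 of 100 genes changed 2-fold and 60 of 100 changed 4-fold were recovered, with 3 false calls. The simulation held no differences between mice or groups beyond these changes, which were equal in all YFP+ spleen libraries of day 5. In the deposited data the pairs differ by unlike amounts, so these rates need not hold there. Genes were named by p, up to 15 in each direction, if called, changed at least 1.5-fold and averaging 20 CPM or more in the group with more of it (5 in each direction for differences between contrasts). Pseudogenes, unnamed models, immunoglobulin and Y-linked genes and Xist were not named. Further genes are members of the lists or were chosen after their values were seen. The comparison, gene lists and rule were chosen with earlier results of these data known. Alternatives were size factors of DESeq2 1.42.0, other filters, fits without the block or on fewer libraries, the DESeq2 Wald test, limma 3.58.1 voom and leaving out each library. Some genes are not reported here.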

Additional observations from a re-analysis of the deposited data

Results flagged for a closer look

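In 6 genes the YFP+ spleen library of mouse 09-15 lay far from the other 3 YFP+ libraries of day 5. It held 20.8 CPM of Stat4 (others 54.9 to 60.3), 438 of Rps18 (160 to 193), 122 of Smdt1 (54.6 to 61.5), 188 of Apoe (9.14 to 30.6), 7.85 of Ube2c (0.308 to 0.623) and 2222 of Edem1 (4180 to 4505). At day 90, Tigit was at 10.4 CPM in the YFP+ library of mouse F12 (others 5.86 to 6.37) and Fam3c at 2.29 CPM in that of mouse M2 (others 5.44 to 5.99). In all, 8 of 87 sets of 4 libraries stood out in this way; chance gives about 1 in 20, and the genes of a library are not independent.

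The YFP contrast differed between organs for Prss34 (12.32 log2, spleen minus marrow, a fitted value that is no bound because most libraries are at or near 0). It differed between days (day 5 minus day 90, log2) for Slamf6 (2.87), Prss57 (4.01), Tigit (2.36), Zfp280b (1.91) and Fam3c (3.48), and in the other direction for Creb3l1 (-1.89), Spns3 (-2.48), Cpq (-2.55), Prg2 (-2.01) and Trf (-1.74).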

How the results depend on the processing

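The number of genes called in spleen at day 5 (456) was 1730 with no filter on low counts, 1277 with a stricter filter, 1921 with the DESeq2 Wald test with mouse as a block, and 0 in 5 settings: without the replicate block, in the day 5 libraries alone, in the 6 paired spleen libraries alone, in the 7 spleen libraries alone with no block, and in limma voom with mouse as a random effect. Unadjusted p-values under 0.05 in those 5 numbered 1865, 3224, 1868, 662 and 2640. Leaving out each library in turn gave 0 to 3500 calls. Without the unpaired YFP+ library of mouse 09-15 there were 576 calls, 210 higher and 366 lower. Without the YFP- libraries of mice 09-01 and 07-26, a setting chosen after seeing the data in which the lone pair 09-29 is assumed to vary like the others, 0 genes were called (275 at an unadjusted p under 0.05, smallest adjusted p 0.361). In that setting Blvrb (0.04), Rpsa (0.06) and Eef1a1 (0.04) changed sign; the cause was not tested.

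A set of 58 called genes was followed singly. It holds those of the naming rule and further called genes, but not every gene named above. All 58 kept their call with DESeq2 size factors, either filter, the DESeq2 test or without the libraries 09-15 (YFP+) or 09-29 (YFP-). In limma voom with the block 55 did so, and 42 without the YFP+ library of mouse 09-29. That limma fit called 652 genes, 379 higher and 273 lower, of which 376 were among the 456. The fit with no filter called 865 each way.

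The organ difference (1 gene) gave 106 genes with no filter, 2 in the day 5 libraries alone, 85 with DESeq2 (without Prss34), 0 without the block and in both limma fits, 0 to 894 with a library left out, and 0 without the 2 YFP- libraries. The day difference (91 genes) gave 538 with no filter, 7 without the block, 392 with DESeq2, 14 in limma with mouse as a random effect, 22 to 1456 with a library left out, and 7 without the 2 YFP- libraries.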
